A study of Mus musculus with 13 samples.

Results

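Genes that mark B lymphocytes and antibody-secreting plasma cells were followed in tumors that arose in MMTV-HER2/Neu mice and in glands of mice without cancer. Chosen by gene symbol, 9 of the 24421 genes in the count table were examined. The B cell genes were Cd22, Cd79a, Cd79b, Cr2, Fcer2a and Bank1, and the plasma cell genes were Jchain, Mzb1 and Tnfrsf17. All 9 had counts in both glands. In the tumors, Cd79b had 3 or fewer counts in 1 of 11, Mzb1 in 4 and Tnfrsf17 in 8, of which 2 had none, while the other 6 genes had more in every tumor.

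B cells carry an antibody on their surface as the antigen receptor. Its signal passes through CD79A and CD79B, which form a dimer beside the antibody, and is tuned by coreceptors such as CD22, which dampens it, and CR2 (CD21), which binds complement fragments and strengthens it. On activation some B cells become plasma cells, which lose most of these surface proteins, enlarge their secretory apparatus and release antibody. The joining chain encoded by Jchain links IgA into dimers and IgM into pentamers. In the mammary gland, plasma cells making dimeric IgA gather around the alveoli in late pregnancy and lactation, drawn by the chemokine CCL28, and the epithelial receptor encoded by Pigr carries the IgA into milk.

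All mice were FVB/N-TgN females of the line 202Mul/J carrying MMTV-HER2/neu, in which a mammary tumor virus promoter drives a rat HER2/Neu cDNA in breast epithelium; the genotype field of the labels reads wild type for every sample. The groups were cancer-free glands of untreated mice (n = 2), primary untreated tumors (n = 3), primary tumors of mice on water with 1 mg/mL stavudine (STV), a nucleoside inhibitor of reverse transcriptase (n = 3), recurrent tumors that regrew after a complete response to 20 mg/kg 17-DMAG, an inhibitor of the chaperone HSP90 (n = 3), and recurrent tumors that regrew after 17-DMAG under STV (n = 2). Each library was one tumor or gland, and the labels give neither the age at collection nor the reproductive state of the mice. STV began at 2 months of age or once a tumor had appeared. The paper describes the primary STV tumors as having arisen in mice already on STV. For the recurrent tumors under STV, the labels do not say which start applied. The paper states that injections of the chaperone inhibitor went on until regrown tumors were large enough to end the experiment. Both recurrent groups therefore came from mice still under this drug, which the primary groups did not receive. Differences between recurrent and primary tumors thus combine recurrence with ongoing drug treatment, and the part of each was not tested.

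Promoter sequences were used for 7 of the 9 genes, as 9 windows of 300 bases from RefSeq on GRCm38.p6, each running from upstream to just downstream of a transcript start, with 3 windows for Fcer2a. Those of Cd22, Cd79a and Jchain are shown as examples of the B cell and plasma cell genes compared below. Capitals mark letters that match the palindrome bound by the B cell factor EBF1, in Cd22, and the reverse complement of GAGGAA, a core bound by PU.1 and related ETS factors, in Cd79a; no motif searched was found in Jchain.
Cd22 promoter, chr7:30878979-30879278, minus strand: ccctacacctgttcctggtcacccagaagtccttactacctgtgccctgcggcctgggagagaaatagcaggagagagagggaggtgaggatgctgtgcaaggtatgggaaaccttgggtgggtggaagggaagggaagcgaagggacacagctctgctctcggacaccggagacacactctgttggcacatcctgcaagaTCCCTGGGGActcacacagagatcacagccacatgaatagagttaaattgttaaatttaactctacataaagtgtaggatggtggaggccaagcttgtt
Cd79a promoter, chr7:24897247-24897546, plus strand: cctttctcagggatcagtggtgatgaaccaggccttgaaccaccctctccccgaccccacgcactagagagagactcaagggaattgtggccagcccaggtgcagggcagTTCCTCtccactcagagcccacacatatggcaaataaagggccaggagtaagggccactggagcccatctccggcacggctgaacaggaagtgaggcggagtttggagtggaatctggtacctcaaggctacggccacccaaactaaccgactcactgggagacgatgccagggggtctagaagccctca
Jchain promoter, chr5:88527848-88528147, minus strand: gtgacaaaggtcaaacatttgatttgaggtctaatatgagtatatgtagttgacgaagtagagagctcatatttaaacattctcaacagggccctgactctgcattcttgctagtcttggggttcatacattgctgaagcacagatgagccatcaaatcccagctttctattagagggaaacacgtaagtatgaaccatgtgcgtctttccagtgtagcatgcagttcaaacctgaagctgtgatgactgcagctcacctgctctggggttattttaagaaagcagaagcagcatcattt

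The EBF1 palindrome lay 49 to 40 bases before the start of Cd22, and it was present in 0.904% of the 32851 promoter windows searched. Its inner letters, CCCNNGGG, were found in 13.7% of windows, in Cd22 within the same palindrome and in Bank1 at 21 to 14 bases before the start. GAGGAA was in 28.3% of windows, and among the members in Cd79a (140 to 135 bases before the start) and Tnfrsf17 (120 to 115 bases before the start), both on the opposite strand. The ETS-IRF composite element was in 2.72% of windows and, among the members, in Bank1 at 66 to 57 bases before the start. The octamer ATTTGCAT, known from immunoglobulin promoters, was in 1.74% and the unfolded protein response core TGACGTGG in 0.676% of windows, and neither was found in a member window. Both strands were searched, and windows on chromosome 18, which holds Mzb1, were left out.

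Library totals ran from 39921388 to 56887708 counts. Levels are given as CPM, the count scaled to a common library size after the total was multiplied by its trimmed mean of M-values (TMM) factor, which was 0.493 in gland 2 and 0.999 to 1.12 elsewhere. Milk protein genes took 37.7% of the counts of gland 2, 3.16% of those of gland 1 and 0.490% to 2.47% of those of the tumors. On library totals alone, gland 2 values are therefore lower than those printed, and places of the members and of the library means that change with this scaling are named. Of counts between 1 and 10, 74.9% to 78.3% were even, so low counts tended to come in pairs. Counting intervals cover counting error only and may be too narrow for this reason.

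The glands differed from each other in the B cell genes and much less in the plasma cell genes. Gland 1 held 20.3 to 68.2 times the CPM of gland 2 in the 6 B cell genes and 0.775 to 2.86 times in the 3 plasma cell genes. These ratios depend on the TMM factors, and on library totals alone the glands lay further apart. Jchain then had 385 CPM in gland 1 and 73.3 in gland 2, Mzb1 7.59 and 1.16, and the B cell gene Cd79a 31.0 and 0.668. Gland 1 lay above all 11 tumors in 9 of 9 members, a place that 15.0% of the 17135 genes tested shared (77.3% lay within the tumors and 7.78% below). Gland 2 lay above all tumors in 3 of 3 plasma cell genes and 1 of 6 B cell genes, where 25.8% of genes did so and 49.5% lay within the tumors. All 3 plasma cell genes and Cd79a were above the tumors in both glands, as 7.37% of genes were, and the other 5 B cell genes in gland 1 alone, as 7.59% were. With 1 library on each side, the difference between the glands has no replicate check, and in RNA from whole tissue fewer cells of a type and less RNA per cell cannot be told apart.

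**Figure D1:**
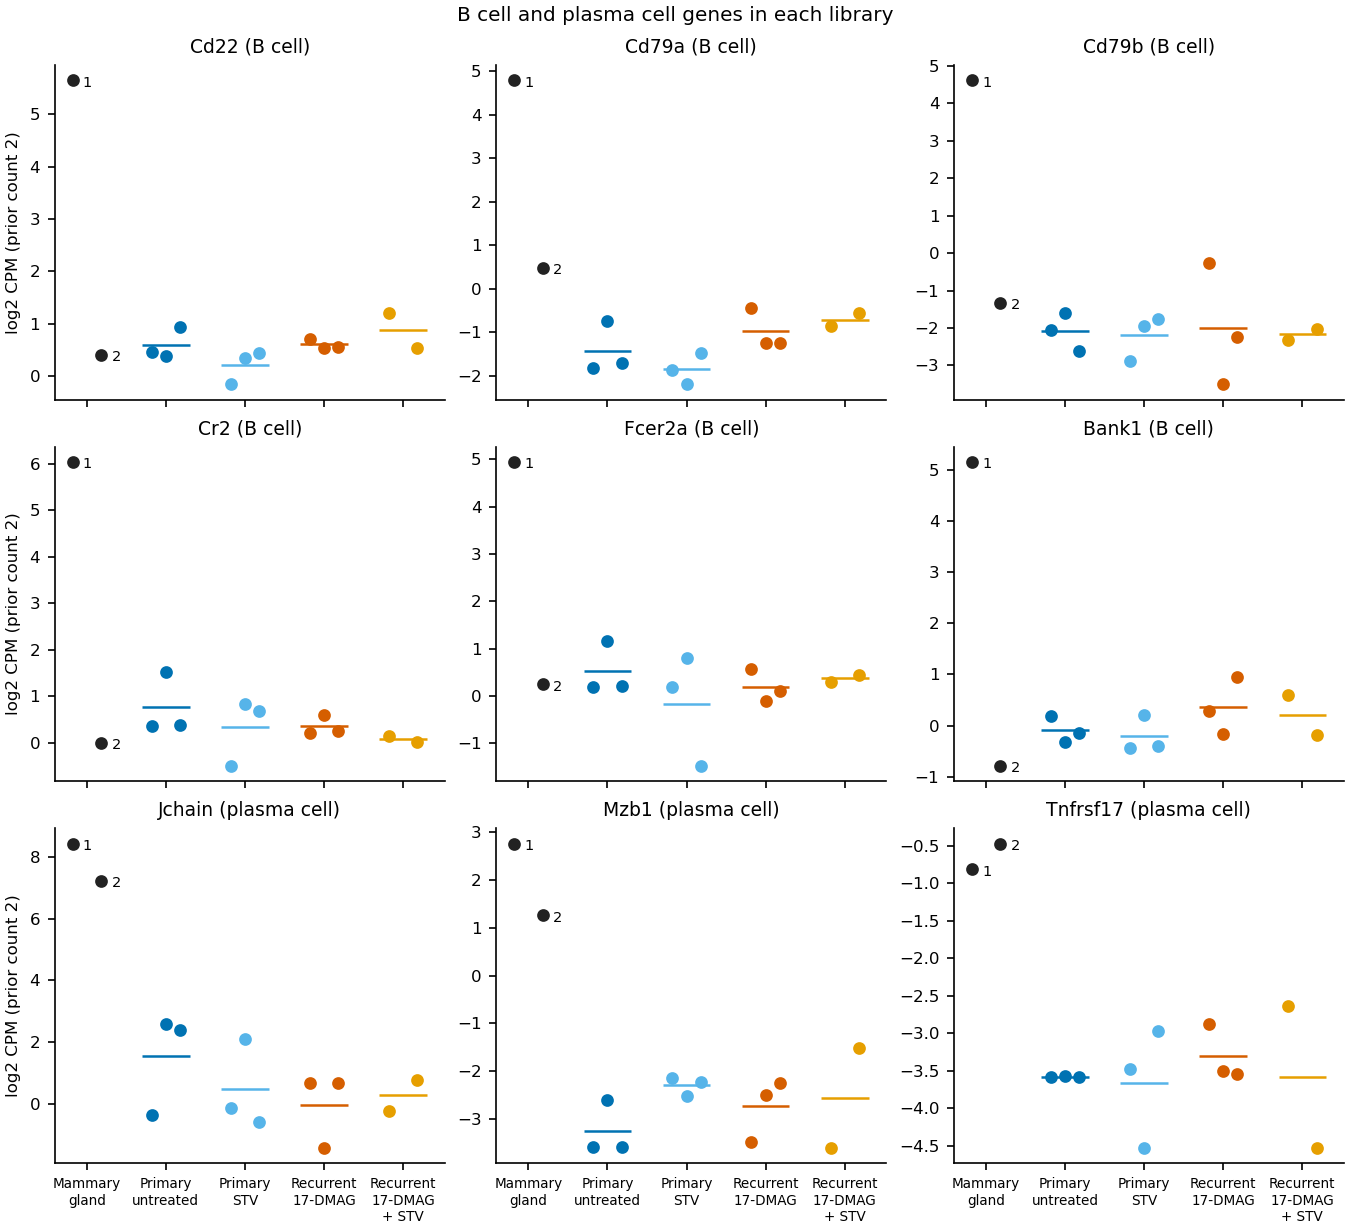
Level of each gene in each library as log2 CPM with a prior count of 2, on an axis of its own for each gene. Points are libraries, numbers name the glands and bars are group means of the tumors; gland 1 sits far above the tumors in all 9 panels, and gland 2 does so in the bottom row of plasma cell genes.

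The signal chains of the B cell receptor came first. Cd79a (GRCm38 chr7:24897381-24902197, plus strand) had 27.6 CPM in gland 1 and 1.36 CPM in gland 2. Its CPM was 0.239, 0.550 and 0.261 in primary untreated, 0.230, 0.174 and 0.316 in primary STV, 0.695, 0.380 and 0.378 in recurrent 17-DMAG, and 0.508 and 0.632 in recurrent 17-DMAG + STV tumors. Both glands exceeded every tumor, gland 2 only under TMM scaling; on library totals alone it was at 0.668 CPM, inside the tumor range of 0.184 to 0.736. Cd79b (chr11:106311341-106314762, minus strand) had 24.3 CPM in gland 1 and 0.357 CPM in gland 2. It had 0.199, 0.285 and 0.120 CPM in primary untreated, 0.0921, 0.218 and 0.253 in primary STV, 0.787, 0.0447 and 0.168 in recurrent 17-DMAG, and 0.156 and 0.204 in recurrent 17-DMAG + STV tumors. Gland 2, with 10 counts, overlapped the tumors, of which recurrent 17-DMAG replicate 1 was above it.

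The coreceptors behaved alike in the glands. Cd22 (chr7:30865402-30880342, minus strand) had 50.0 CPM in gland 1 and 1.28 in gland 2. Tumor values were 1.33, 1.26 and 1.86 CPM in primary untreated, 0.852, 1.22 and 1.31 in primary STV, 1.598, 1.41 and 1.43 in recurrent 17-DMAG, and 2.27 and 1.41 in recurrent 17-DMAG + STV tumors. Gland 2 lay above 3 of the 11 tumors, and below all of them on library totals alone. Cr2 (chr1:195136811-195176716, minus strand) had 65.4 CPM in gland 1, the highest of the B cell genes there, and 0.963 in gland 2. It had 1.25, 2.85 and 1.26 CPM in primary untreated, 0.668, 1.74 and 1.56 in primary STV, 1.11, 1.47 and 1.15 in recurrent 17-DMAG, and 1.08 and 0.978 in recurrent 17-DMAG + STV tumors. Gland 2 was above 1 tumor, and below all of them on library totals alone. CR2 is also made by follicular dendritic cells, so this gene is not exclusive to B cells.

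The remaining B cell genes were Fcer2a, which encodes the low-affinity IgE receptor CD23 of mature B cells, and Bank1, an adaptor of B cell receptor signalling. Fcer2a (chr8:3681737-3694175, minus strand) had 30.7 CPM in gland 1, 1.14 in gland 2 and 0.316 to 2.18 with a median of 1.12 in the tumors. Bank1 (chr3:136053363-136326066, minus strand) had 35.5 CPM in gland 1 and 0.535 in gland 2, which was below all 11 tumors (0.691 to 1.89 CPM, median 0.862). A place below all tumors in gland 2 was shared by 24.7% of genes. Set against the 11 tumors pooled, gland 1 was 25.2 times (95% exact interval 22.9 to 27.7, Fcer2a) to 108 times (89.0 to 131, Cd79b) higher in the B cell genes. Gland 2 was between 0.512 times (0.285 to 0.853, Bank1) and 3.42 times (2.35 to 4.85, Cd79a) the pooled tumors.

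Jchain was the member with the highest level per kilobase of exon in both glands. Jchain (chr5:88519809-88527891, minus strand) had 342 CPM in gland 1 and 149 CPM in gland 2. It had 0.737, 6.03 and 5.17 CPM in primary untreated, 0.875, 4.31 and 0.633 in primary STV, 1.57, 0.335 and 1.55 in recurrent 17-DMAG, and 0.821 and 1.69 in recurrent 17-DMAG + STV tumors. No tumor came near either gland, and 3 primary tumors (untreated replicates 2 and 3 and STV replicate 2) stood above the other 8. Relative to the pooled tumors, Jchain was 157 times (148 to 167) higher in gland 1 and 68.1 times (63.8 to 72.8) higher in gland 2.

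Mzb1, a protein of the endoplasmic reticulum that helps antibody assembly in marginal zone B cells and plasma cells, and Tnfrsf17, which encodes the survival receptor BCMA of plasma cells, were lower throughout. Mzb1 (chr18:35647267-35649367, minus strand) had 6.75 CPM in gland 1 and 2.36 in gland 2. In the tumors it had 2 to 15 counts and at most 0.306 CPM. Tnfrsf17 (chr16:11313812-11320074, plus strand) had 26 counts (0.525 CPM) in gland 1 and 19 counts (0.678 CPM) in gland 2, against 0 to 6 counts and at most 0.117 CPM in a tumor. Both glands were above all tumors in both genes on either scaling. The ratio to the pooled tumors was 54.2 (41.4 to 71.8) for Mzb1 and 10.5 (5.88 to 18.9) for Tnfrsf17 in gland 1, and 18.9 (13.2 to 27.0) and 13.6 (7.12 to 25.6) in gland 2. Tnfrsf17 was the only member with a higher CPM in gland 2 than in gland 1, and on library totals alone gland 2 was the lower, at 0.334 against 0.591 CPM.

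**Figure D2:**
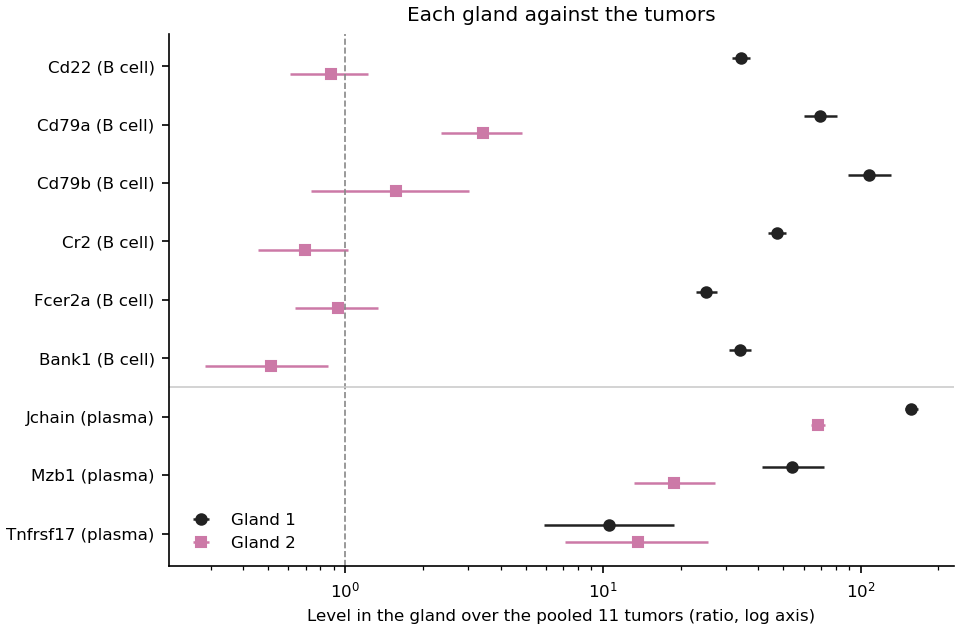
Ratio of the CPM in each gland to that in the pooled 11 tumors, on a log axis, with exact 95% intervals for counting error. Gland 1 lies at 10.5 to 157 in all 9 genes, and gland 2 lies near 1 for most B cell genes (0.512 to 3.42) and at 13.6 to 68.1 for the plasma cell genes.

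Per kilobase of exon, the order of the members differed between tissues. In gland 1, Jchain (136 CPM per kilobase) was followed by Cd79a (18.9), Cd79b (17.0), Fcer2a (9.92), Cd22 (9.91), Cr2 (8.06), Mzb1 (5.55), Bank1 (4.75) and Tnfrsf17 (0.644). In gland 2, Jchain (59.1) was followed by Mzb1 (1.94), then Cd79a (0.931) and Tnfrsf17 (0.832), so that all 3 plasma cell genes were among its highest 4. In the tumors the medians ran from 0.617 CPM per kilobase for Jchain through 0.363 for Fcer2a, 0.279 for Cd22 and 0.259 for Cd79a to 0.0515 for Tnfrsf17. The tumor ranges of Jchain (0.133 to 2.40), Fcer2a (0.102 to 0.705), Cd22 (0.169 to 0.450) and Cd79a (0.119 to 0.477) overlapped, so neighbours in that order did not differ beyond their spread.

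The balance of plasma cell to B cell genes set gland 2 apart from every other library. As the mean log2 CPM over the 3 plasma cell genes minus that over the 6 B cell genes, gland 2 was at 2.83, gland 1 at -1.74 and the tumors between -2.07 and -0.97 (median -1.44). The B cell mean was 5.19 in gland 1, -0.16 in gland 2 and -0.94 to 0.18 in the tumors, and the plasma cell mean was 3.46, 2.67 and -2.51 to -1.19. Gland 2 was above the tumors for the plasma cell mean, also on library totals alone (1.69 against -2.45 to -1.19), and within them for the B cell mean, which on library totals alone was below all tumors (-1.10 against -0.83 to 0.26). The balance itself hardly depended on the scaling, at 2.79 in gland 2, -1.74 in gland 1 and -2.09 to -0.99 in the tumors on library totals alone. With a prior count of 0.5 the balance was 2.86 in gland 2, -1.77 in gland 1 and -2.48 to -1.15 in the tumors. With only the members that had at least 3 counts in every library, which leaves Jchain and 5 B cell genes, gland 2 (7.15) remained the highest, and gland 1 (3.11) moved above the tumors (-1.33 to 2.45). As a plain ratio, Jchain CPM over Cd22 CPM was 116 in gland 2, 6.85 in gland 1 and 0.238 to 4.77 in the tumors.

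**Figure D3:**
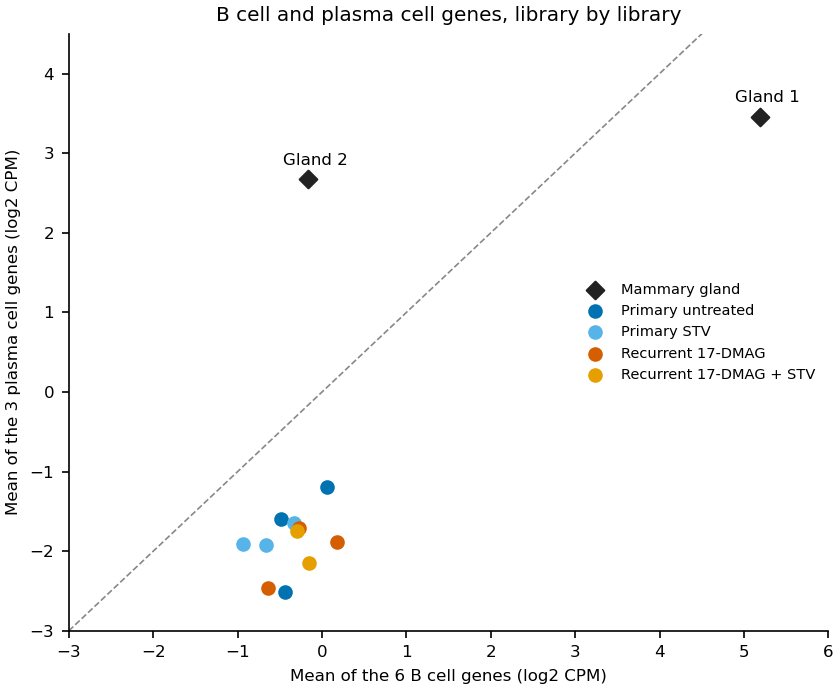
Mean log2 CPM of the 3 plasma cell genes (vertical) against that of the 6 B cell genes (horizontal), one point per library, with a dashed line of equal means. The tumors form one cloud below the line, gland 1 lies to the right of it at 5.19 and 3.46, and gland 2 lies above the tumors at -0.16 and 2.67 under the TMM scaling shown.

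The test of glands against primary untreated tumors, fitted with edgeR on all 13 libraries, asked whether these genes were lower in tumors. Jchain fell by 5.95 (SE 1.07, adjusted p = 0.0378) and Cd79a fell by 5.36 (SE 0.97, adjusted p = 0.0378) on the log2 scale. Mzb1 and Tnfrsf17 passed the filter on low counts only through the glands, so their entry into the test already required a difference and their values, -6.03 (SE 0.91, adjusted p = 0.0235) and -3.81 (adjusted p = 0.0850), are a description. With Mzb1 the test called 3 of the 9 members, where 2.11% of the 17135 genes were called (1.83% lower). The other members had log2 differences of -4.11 (Cd22, adjusted p = 0.0563), -5.92 (Cd79b, 0.0601), -4.32 (Bank1, 0.0653), -4.21 (Cr2, 0.0689) and -3.44 (Fcer2a, 0.0852) and did not pass. The median was -4.26 over the B cell genes, beside -0.02 over all genes. All values of the gland and primary untreated groups were separate for Cd79a, Cd79b, Jchain, Mzb1 and Tnfrsf17, as for 39.2% of genes (20.4% with the tumors lower). For Cd79b this held only under TMM scaling. On library totals alone gland 2 was at 0.176 CPM, among primary untreated values of 0.211, 0.285 and 0.130. DESeq2 called all 9 members and 13.1% of genes (9.35% lower). Its calls of Mzb1 and Tnfrsf17, too low in the tumors to be tested there, are likewise a description. By contrast, edgeR on library totals alone called 0 members and 0.111% of genes, although 9 of 9 members, and 24.5% of genes, had an unadjusted p under 0.05 with TMM scaling.

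Each gland on its own gave a different set of calls. With gland 2 left out, edgeR called 8 of 9 members and 1.45% of genes (1.42% lower): all 6 B cell genes, from -4.29 (SE 0.68, adjusted p = 0.0147, Fcer2a) to -6.80 (SE 1.04, adjusted p = 0.0133, Cd79b), with Jchain (-6.33, adjusted p = 0.0340) and Mzb1 (-6.50, adjusted p = 0.0109). With gland 1 left out it called 2 of 9 members and 19.2% of genes (9.06% lower). These were Jchain, which fell by 5.19 (SE 1.16, adjusted p = 0.0153), and Mzb1, at -5.04 (SE 1.00, adjusted p = 0.00983), to which the same limit of the filter applies. In that fit the B cell genes gave log2 differences of 0.25 (SE 0.47, Cd22), 0.93 (SE 0.70, Cr2), 0.40 (SE 0.81, Fcer2a), 0.79 (SE 0.64, Bank1), -0.78 (SE 1.25, Cd79b) and -1.91 (SE 0.65, adjusted p = 0.0674, Cd79a). A lone gland is assumed to vary like the tumors in such a fit. Mzb1, which the filter did not keep among the tumors alone, is a description in both fits and in both counts of members. Without any one of the primary untreated tumors, or without primary STV replicate 1, no member was called. The count was 5 without recurrent 17-DMAG replicate 1 and 1 without recurrent 17-DMAG replicate 3 or primary STV replicate 3, and the range over leaving out single libraries was 0 to 8 members.

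B cell surface and identity genes outside the members summed to 413 CPM in gland 1, 41.6 in gland 2 and 50.0 to 97.0 in the tumors. Of 20 such genes, gland 1 was above all tumors in 18, where 15.0% of genes were, and gland 2 in 5, where 25.8% were; on library totals alone gland 2 was above in 0, where 5.44% of genes were. Ms4a1 (CD20) had 29.1 CPM in gland 1, 0.214 in gland 2 and at most 0.119 in a tumor, and Pax5, the transcription factor that maintains B cell identity, had 14.7, 0.143 and at most 0.127 CPM. In gland 2 these were 6 and 4 counts, beside at most 6 in a tumor, and on library totals alone gland 2 (0.105 and 0.0703 CPM) lay within the tumors for both genes. Against primary untreated tumors, 2 of the 16 genes tested fell, Siglecg (-6.12, SE 1.31, adjusted p = 0.0468), an inhibitory lectin of B cells, and Cd72 (-2.18), with a list median of -3.35 and 12 at an unadjusted p under 0.05, where 24.5% of genes were. In the receptor signalling list 2 of 14 fell, among them the kinase gene Syk (-2.64, SE 0.57, adjusted p = 0.0473), with a median of -1.07. The germinal centre list did not follow, with 0 of 4 called by edgeR, 2 at an unadjusted p under 0.05 in opposite directions and a median of 0.70, and each gland was above the tumors in 2 of its 6 genes.

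Of 11 plasma cell genes outside the members, gland 1 was above all tumors in 6, where 15.0% of genes were. Gland 2 was above in 6 as well, where 25.8% were, and on library totals alone in 3, where 5.44% were. Irf4, a transcription factor needed for plasma cell fate, had 22.7 CPM in gland 1, 14.3 in gland 2 and 0.587 to 3.31 in the tumors, and fell in tumors by 3.57 (SE 0.62, adjusted p = 0.0358). Tnfrsf13b (TACI), a receptor for the survival factors BAFF and APRIL, had 2.42, 1.53 and at most 0.420 CPM (log2 difference -3.15, adjusted p = 0.0524). Sdc1, the surface marker CD138, and Xbp1, the driver of secretory expansion, are also made by mammary epithelium, and Sdc1 had 37.7 and 33.5 CPM in the glands within a tumor range of 23.6 to 57.8, below which gland 2 fell on library totals alone. In all, 2 of 11 genes of this list fell, Irf4 and Glcci1, with a median of -0.74, and 0 of 12 secretory genes were called by edgeR (5 at an unadjusted p under 0.05). The 12 immunoglobulin constant region genes of the fixed list were not analysed here.

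Among genes of IgA transport, Pigr and Ccl28 were highest in gland 2, the library richest in milk protein transcripts. Pigr had 3169 CPM in gland 2, 136 in gland 1 and 22.1 to 311 in the tumors. Ccl28 had 482 CPM in gland 2, 5.07 in gland 1 and 0.695 to 15.3 in the tumors. Madcam1, the vascular ligand of homing lymphocytes, had 5.495 CPM in gland 2, 1.45 in gland 1 and at most 0.184 in a tumor. Like Mzb1, it passed the filter on low counts only through the glands. Its log2 difference, -6.58 (SE 1.22, adjusted p = 0.0404), is therefore a description. Itgb7, a chain of the integrin that binds the Madcam1 protein, had 3.46 CPM in gland 2, 27.3 in gland 1 and at most 2.99 in a tumor. The rest of this list did not share the rise in gland 2. Itga4 had 45.2 CPM in gland 1 and 8.67 in gland 2, and Vcam1 had 64.6 and 16.2. Ccr10, at 1.94 and 2.14 CPM, lay within the tumor range of 1.07 to 2.63 under TMM scaling. The part of milk protein content in the plasma cell values was not tested. With milk protein, skeletal muscle and adipocyte genes left out of the fit, the members called stayed at 3.

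T cell and lymphoid tissue markers moved with the B cell genes in gland 1. The 10 T cell genes summed to 168 CPM in gland 1, 11.7 in gland 2 and 5.504 to 13.1 in the tumors. On library totals alone their gland 2 sum was 5.78, below the tumor range of 5.86 to 13.9. In gland 1, 10 of 10 were above all tumors, where 15.0% of genes were. In gland 2, 2 of 10 were, where 25.8% of genes were (1 on library totals alone, where 5.44% were). Of 8 genes of lymph node stroma and vessels, 6 were above all tumors in gland 1 and 2 in gland 2, beside the same shares (1 on library totals alone). They summed to 56.8 CPM in gland 1, 34.8 in gland 2 (24.7 of it Prox1) and 1.53 to 25.0 in the tumors. On library totals alone their gland 2 sum was 17.1, within the tumor range of 1.53 to 26.5. Cxcl13, the chemokine of B cell follicles, had 16.1 CPM in gland 1, 0.0714 in gland 2 and at most 1.96 in a tumor, and Ccl19, a T zone chemokine, had 13.7, 0.214 and at most 0.370 CPM. Chst4, an enzyme of high endothelial venules, had 82 counts in gland 1 and 0 in gland 2 and in all 11 tumors. Ccl21a had 0 counts in every library. Dendritic cell genes summed to 81.1 CPM in gland 1 and 36.2 in gland 2 against 17.1 to 35.6 in the tumors. On library totals alone their gland 2 sum was 17.8, below the tumor range of 18.1 to 37.7. Macrophage genes (395 and 231 CPM) lay within the tumor range of 158 to 576, gland 2 only under TMM scaling. Adipocyte genes were above the tumors in both glands (1384 and 1278 CPM against 117 to 266). Whether lymphoid tissue was included in gland 1 was not tested.

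**Figure D4:**
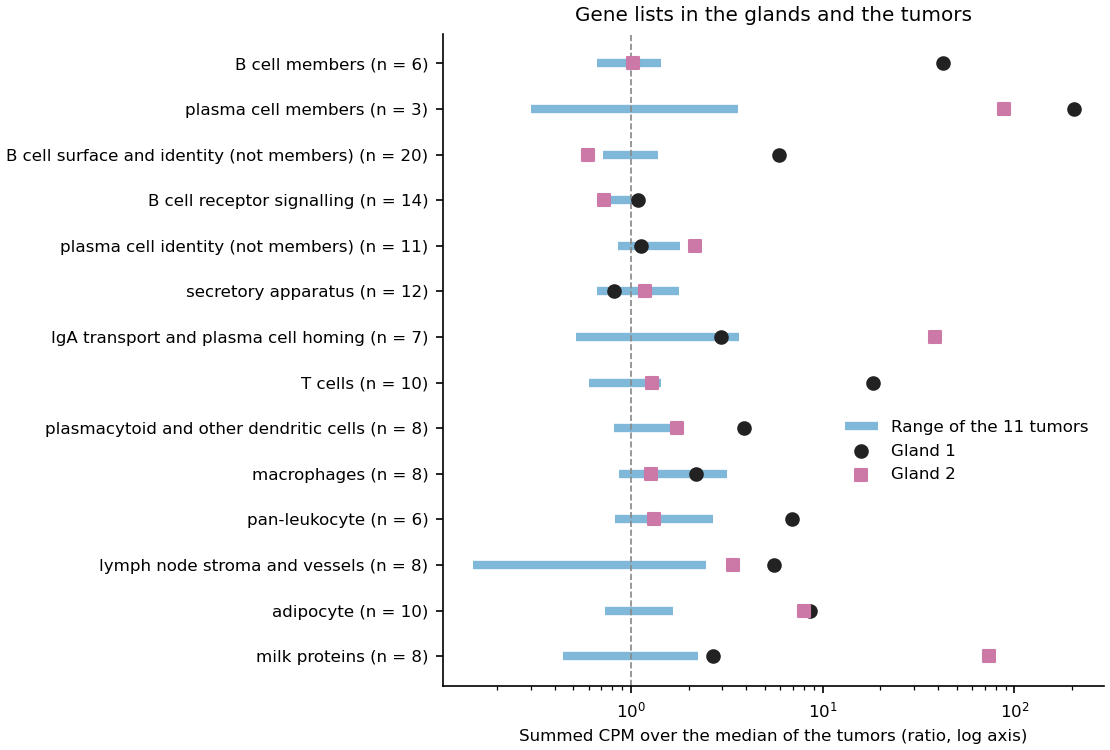
Summed CPM of 14 gene lists, divided by the median of the tumors, on a log axis; bars span the 11 tumors and points are the glands. The B cell members and the B cell surface, T cell, pan-leukocyte and lymph node lists stand out more in gland 1 than in gland 2. The IgA transport and milk protein lists stand out more in gland 2. The plasma cell members and adipocyte genes lie above the tumors in both glands, and receptor signalling in gland 1 lies within them.

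Among the 4 tumor groups the B cell genes were low, and they differed in how widely the tumors spread. Mean Cd22 was 1.49 ± 0.33 CPM (SD, n = 3) in primary untreated, 1.13 ± 0.24 (n = 3) in primary STV, 1.48 ± 0.10 (n = 3) in recurrent 17-DMAG and 1.84 ± 0.61 (n = 2) in recurrent 17-DMAG + STV tumors. Mean Cr2 was 1.79 ± 0.92, 1.32 ± 0.57, 1.25 ± 0.20 and 1.03 ± 0.07 CPM in the same order, and mean Bank1 was 0.904 ± 0.174, 0.839 ± 0.235, 1.31 ± 0.53 and 1.15 ± 0.45 CPM. Mean Jchain was 3.98 ± 2.84, 1.94 ± 2.06, 1.15 ± 0.71 and 1.26 ± 0.62 CPM, and its tumors differed by 18.0-fold from the lowest to the highest, as against 2.66-fold for Cd22, 2.73-fold for Bank1, 3.99-fold for Cd79a, 4.27-fold for Cr2 and 6.89-fold for Fcer2a. Cd79b also spread widely, from 0.0447 to 0.787 CPM, where the lowest value rests on 2 counts.

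Filtering on low counts among the tumors kept 7 of the 9 members, without Mzb1 and Tnfrsf17. Their summed counts per group were 10 and 6 in primary untreated, 22 and 6 in primary STV, 16 and 8 in recurrent 17-DMAG and 17 and 6 in recurrent 17-DMAG + STV tumors, and they were not tested between tumor groups. In the 4 comparisons between tumor groups and in the interaction of recurrence with STV, edgeR called 0 of the 7 members and 0% of 16870 genes, and 0 members had an unadjusted p under 0.05. That unadjusted level was reached by 3.76% of genes for STV in primary tumors, 9.69% and 10.1% for recurrence without and with STV, 7.84% for STV in recurrent tumors and 7.84% for the interaction. DESeq2 called 0 members and between 18 and 327 genes.

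STV in primary tumors gave log2 differences (STV minus untreated) below 0 in all 7 members, from -0.11 (SE 0.91, Cd79b) to -1.05 (SE 0.95, Jchain). The B cell median was -0.43 beside -0.03 over all genes. The smallest p was that of Cd22 (-0.41, SE 0.32, adjusted p = 1.00), and none of these 7 separated the groups, as 10.8% of genes did (5.83% with STV lower). Mzb1, not tested, did separate them in the other direction, with 0.0398, 0.122 and 0.0401 CPM (2, 6 and 2 counts) in primary untreated and 0.184, 0.131 and 0.169 CPM (8, 6 and 8 counts) in primary STV tumors. In recurrent tumors the STV difference was above 0 in 4 members, and it ranged from -0.87 (SE 1.02, Cd79b) to 0.32 (SE 0.36, Cd22), with a B cell median of -0.00. Cr2 was lower in both recurrent 17-DMAG + STV tumors (1.08 and 0.978 CPM) than in the 3 recurrent 17-DMAG tumors, at -0.27 (SE 0.52, adjusted p = 0.954), and 21.5% of genes separated these groups (10.5% with STV lower).

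Recurrent against primary tumors without STV gave -1.80 (SE 0.97, adjusted p = 0.529) for Jchain, the largest difference among the members in size. The highest recurrent value, 1.57 CPM, lay between the primary untreated values of 0.737 and 5.17, so the groups overlapped, as they did for all 7 members tested, where 15.1% of genes separated them (7.45% with recurrent tumors lower). Tnfrsf17, not tested, was higher in all 3 recurrent tumors by CPM, with 4, 2 and 2 counts against 2 in each primary tumor. The B cell genes ran from -0.54 (SE 0.46, Cr2) to 0.70 (SE 0.89, Cd79b), with a median of 0.21 beside -0.01 over all genes. Cd79b was at 0.787 CPM in recurrent 17-DMAG replicate 1 and at 0.0447 and 0.168 in the other two, and without replicate 1 its difference was -0.89. That tumor was also the highest of the 11 in summed macrophage genes (576 CPM, against at most 294 in any of the other 3 groups) and pan-leukocyte genes (183 CPM), and in Cd79a. The part of its leukocyte content in these values was not tested. Recurrence was not separated from the ongoing drug treatment, here or under STV.

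Under STV, recurrent against primary tumors gave 1.24 (SE 0.57, adjusted p = 0.4999) for Cd79a and 0.71 (SE 0.36, adjusted p = 0.523) for Cd22. Both genes were higher in both recurrent than in all 3 primary tumors, with Cd79a at 0.508 and 0.632 against 0.174 to 0.316 CPM and Cd22 at 1.41 and 2.27 against 0.852 to 1.31 CPM. Such separation held in 35.3% of genes (17.9% with recurrent tumors lower), and neither passed the test. Jchain was at -0.62 (SE 1.07), and without primary STV replicate 2, the highest of its group, at 0.73. The interaction term, the recurrence difference under STV minus that without, ran from -0.76 (SE 1.36, Cd79b) to 1.17 (SE 1.41, Jchain), with its smallest p for Cd22 (0.73, SE 0.48, adjusted p = 0.743).

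**Figure D5:**
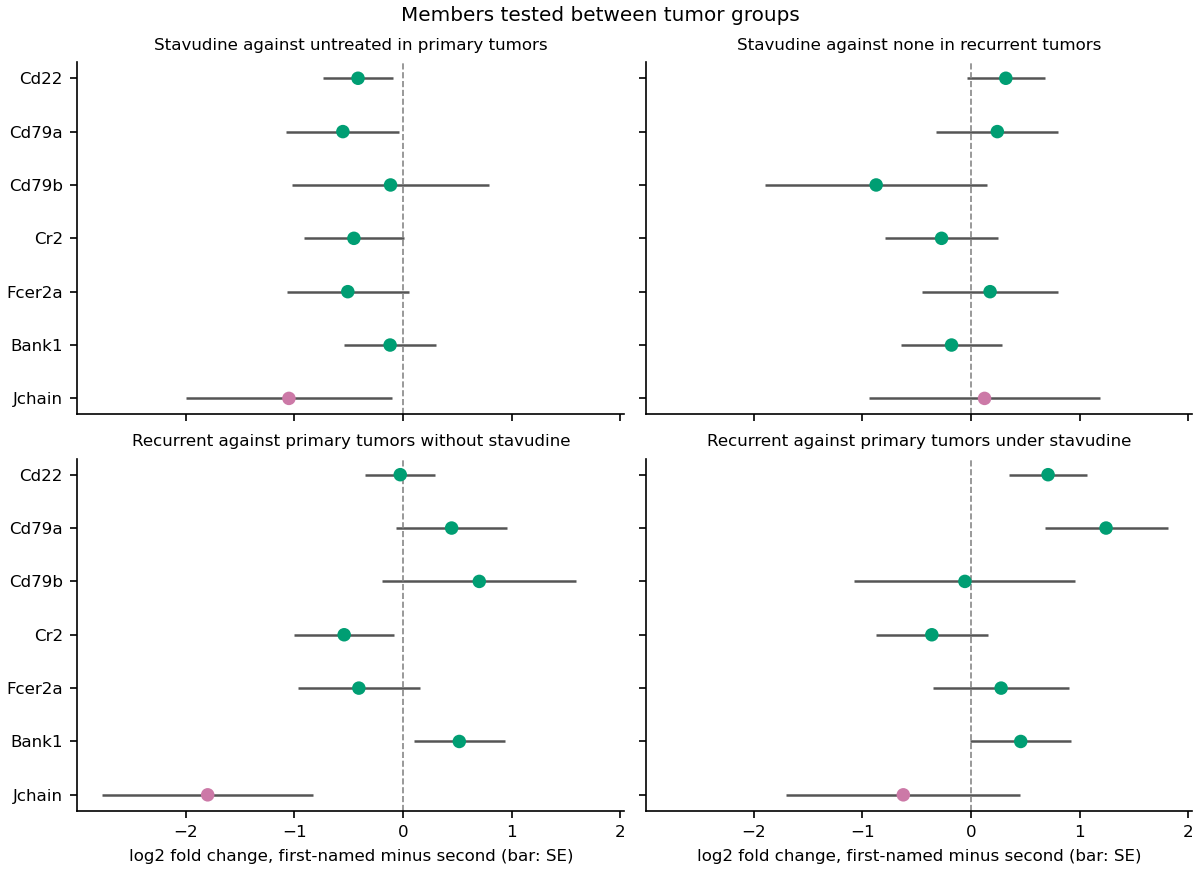
Log2 fold changes of the 7 members tested, first-named group minus second, in the 4 comparisons between tumor groups, with bars of 1 SE; green points are B cell genes and the pink point is Jchain. Most bars reach 0, and the points farthest from it are Jchain at -1.80 and Cd79a at 1.24.

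Neighbouring gene lists showed the same absence of calls among tumors. Over the 4 comparisons and the interaction, 0 genes of any list passed the edgeR test. In recurrent against primary tumors under STV, Pou2af1, the coactivator OBF1 of B cells, was at 5.04 (SE 1.46, adjusted p = 0.336), and Cxcl13 at 4.97 (SE 1.69, adjusted p = 0.419). Pou2af1 reached 14.9 CPM in recurrent 17-DMAG + STV replicate 2, whereas Ms4a1 had at most 0.119 CPM in any tumor. Macrophage genes had a median of 0.65 without STV and 0.78 under STV in the recurrent tumors, with 8 of 8 above 0 in each. Their sum without STV was 168 to 576 CPM in recurrent and 180 to 209 in primary tumors, so these groups overlapped. Under STV it was 269 to 294 in recurrent and 158 to 178 in primary tumors. Pan-leukocyte genes had medians of 0.79 and 0.65, with 6 of 6 above 0. The T cell medians were 0.16 and -0.38.

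Within the tumors the members did not form a tight group. Over the 11 tumors, Pearson's r between pairs of B cell genes ran from -0.13 to 0.50 (median 0.18, 15 pairs). It ran from -0.53 to -0.07 between the 3 pairs of plasma cell genes and from -0.60 (Cd22 with Mzb1) to 0.63 (Fcer2a with Jchain) across the sets. These pairs share their libraries and most rest on few counts. Cd79a and Cd79b, whose proteins form 1 dimer, had r = 0.45. Among the genes most like the B cell mean over these tumors, of 13663 candidates, were Dennd4b (r = 0.94), Rinl (0.92), Uckl1os (0.91), Slc37a2 (0.90) and Csf2rb (0.89). Those most like the plasma cell mean were Usmg5 (0.87), Irak1bp1 (0.85), Pcdhb10 (0.84), Pgm3 (0.84), Cd44 (0.83) and Ccs (0.83), and as the highest of so many candidates none of these values carries a test. In gland 2, where the plasma cell mean was high, Usmg5 (50.9 CPM) and Pgm3 (55.99 CPM) lay above their tumor maxima under TMM scaling. Ccs (15.6 CPM) lay within the tumors, and Irak1bp1 (1.07 CPM), Pcdhb10 (0.714 CPM) and Cd44 (34.0 CPM) lay below their tumor minima. On library totals alone all gland 2 values are lower, so the places of Usmg5, Pgm3 and Ccs depend on the scaling.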

How the data were processed

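Total RNA depleted of ribosomal RNA was sequenced from 11 tumors and 2 glands. The authors deposited raw read counts per gene, not normalized. Per the labels, a stranded library kit was used, and the submitters' processing notes name bcl2fastq 2.20, STAR, featureCounts and Subread 1.6.2 with mm10 (GRCm38). The strand setting and the handling of reads with several matches are not given in the sources used here, so counts of overlapping genes are uncertain. Positions and exon lengths came from GENCODE M21 (GRCm38), and promoters from RefSeq (GRCm38.p6).

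The counts were tested in R 4.3.3 with the edgeR 4.0.16 quasi-likelihood test (filterByExpr, TMM factors, robust fit, two-sided, Benjamini-Hochberg adjustment over all genes tested, called at an adjusted p under 0.05). The gland comparison used all 13 libraries and 17135 genes; the 4 comparisons between tumor groups and their interaction used 11 libraries and 16870 genes. Differences are signed as tumors minus glands. Log2 CPM values have a prior count of 2. Ratios to pooled tumors carry exact 95% binomial intervals (SciPy 1.17.1), and 3 counts were taken as the floor. Spread was measured between individual tumors or glands. The script was tested on simulated data.

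The 9 members and the 17 other gene lists were chosen with earlier results of these data known. Named besides the members were, per list, the tested gene with the smallest p, and the 6 genes with the highest r to each member mean over the tumors among genes whose tumor mean of log2 CPM was 0 or more. Genes named outside this rule (among them Ms4a1, Pax5, Pigr, Ccl28, Sdc1 and Chst4) were chosen after their values were seen. Some genes that the rule names are not reported here. Alternatives were DESeq2 1.42.0, other size factors, library totals alone, no filter, fewer genes, only the groups compared, a replicate block and leaving out each library. The study's deconvolution of immune cells was not repeated.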

Additional observations from a re-analysis of the deposited data

How the results depend on the processing

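For glands against primary untreated tumors, the adjusted p over 20 alternatives ran from 6.54e-08 to 0.173 for Jchain (11 under 0.05) and from 4.67e-07 to 0.174 for Cd79a (6). DESeq2 called 2335 genes and 9 members, library totals alone 19 genes and 0 members, and the fit of only the groups compared 0 genes and 0 members. Leaving out single libraries gave 0 to 3381 genes and 0 to 8 members. The cause was not tested. Among tumors DESeq2 called 18 genes for STV in primary tumors, 67 for recurrence without STV, 327 for recurrence under STV, 258 for STV in recurrent tumors and 186 for the interaction. The fit of only the groups compared called 2 genes for recurrence under STV. Single libraries left out gave 0 to 1 genes for recurrence without STV, 0 to 100 under STV, 0 to 141 for STV in recurrent tumors and 0 to 77 for the interaction, with the highest of the last 3 without recurrent 17-DMAG + STV replicate 1. No member was called between tumor groups under any alternative.

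Fold changes that turned sign when single libraries were left out are given as ranges on the log2 scale. In the gland comparison they were -5.20 to 0.79 for Bank1, -4.97 to 0.25 for Cd22, -5.09 to 0.93 for Cr2 and -4.29 to 0.40 for Fcer2a, each above 0 without gland 1 only. For STV in primary tumors they were -0.36 to 0.0407 for Bank1, -0.38 to 0.24 for Cd79b and -0.69 to 0.0785 for Cr2. For recurrence without STV they were -0.12 to 0.17 for Cd22, -0.89 to 1.25 for Cd79b and -0.60 to 0.0108 for Fcer2a, and Cd22 was at 0.0029 on library totals alone. For recurrence under STV they were -0.0108 to 0.80 for Bank1, -0.38 to 0.21 for Cd79b, -0.16 to 0.81 for Fcer2a and -1.23 to 0.73 for Jchain. For STV in recurrent tumors they were -0.65 to 0.19 for Bank1, -0.0771 to 0.61 for Cd22, -1.40 to 0.74 for Cd79b and -0.50 to 0.54 for Jchain. For the interaction they were -0.55 to 0.31 for Bank1, -1.31 to 0.83 for Cd79b and -0.37 to 0.40 for Cr2.

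Samples shared only a replicate number: of 15 pairs with the same number, 3 had a correlation of deviations over 0.1, beside 13 of 30 with other numbers. With the replicate number as a block, 4 genes and 0 members were called in the gland comparison, and for STV in recurrent tumors Fcer2a was at -0.16 and Jchain at -0.22. The library means and gene lists on library totals alone were computed after seeing the data. Mzb1 and Tnfrsf17 had too few counts in the tumors to be tested there, and the number of glands, 2 that differed from each other, limited every test against them.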
